A study of Mus musculus with 3 samples.

Results

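The sites described here lie inside long genes, away from the start of the transcript each was assigned to. They come from the authors' list of places in the mouse genome where binding of PARP-1 differed between cocaine and saline. The rule took gene-body sites of genes 150 kb or longer, with a centre more than 15 kb from the gene's start. Length and start were those of the transcript assigned to the site, and starts of other transcripts were not checked. Of the 1727 listed sites, 263 met this rule (15.2%), or 38.4% of the 685 gene-body sites. They lay in 223 genes. Of these genes 192 held 1 site, 24 held 2, 5 held 3 and 2 held 4. The study gave C57BL/6 mice daily intraperitoneal injections of cocaine (20 mg/kg) or saline for 7 days and took the nucleus accumbens 30 min after the last one. The labels name no genetic change, and age and sex are not given in the sources used here. Each ChIP-seq replicate pooled punches of this brain region from 10 mice, so it mixes neurons and glia. A change in how many cells of a type were sampled and a change in PARP-1 per cell cannot be told apart. The labels speak of 3 replicates per group, while the list carries 2 values for cocaine and 3 for saline at every site, which are the n used for every mean below. Because the list holds only sites that differed, the tissue could not be checked against its marker genes.

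PARP-1 is an abundant nuclear enzyme that binds nucleosomes and DNA breaks and builds chains of ADP-ribose on itself and on neighbouring proteins. These chains loosen chromatin and recruit repair and remodelling factors. Genes of the length studied here are mostly intron. They are frequent among genes used by neurons, especially those of adhesion molecules, ion channels and receptors, and several of the longest overlap common fragile sites, places where chromosomes tend to break under replication stress. Whether a site lay in an exon or an intron was not analysed here.

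PARP-1 signal stood higher in the cocaine group at 251 of the 263 sites, in 215 genes, and lower at 12, in 10 genes, as the authors' list gives the directions. A typical higher site went from about 4 to about 16 normalized reads, where a normalized read is a read count scaled by the authors for library depth. Over the 251 higher sites the lowest, median and highest value were 13.1, 15.6 and 30.4 in the first cocaine library. They were 13.6, 15.9 and 31.8 in the second. In the saline libraries the medians were 4.25, 4.56 and 4.37, and the highest values 12.7, 11.9 and 10.9. Both cocaine libraries stood at one level and all 3 saline libraries at another, which the selection of the sites on these same libraries favours. Between the cocaine libraries the second was slightly the higher, at 145 of the 251 sites. The group means differed by 2.35 to 8.83-fold, with a median of 3.54-fold. At the 12 lower sites the medians were 4.11 and 3.98 after cocaine and 14.9, 15.5 and 16.9 after saline. The group means there differed by 3.29 to 4.90-fold, with a median of 4.0-fold.

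**Figure D1:**
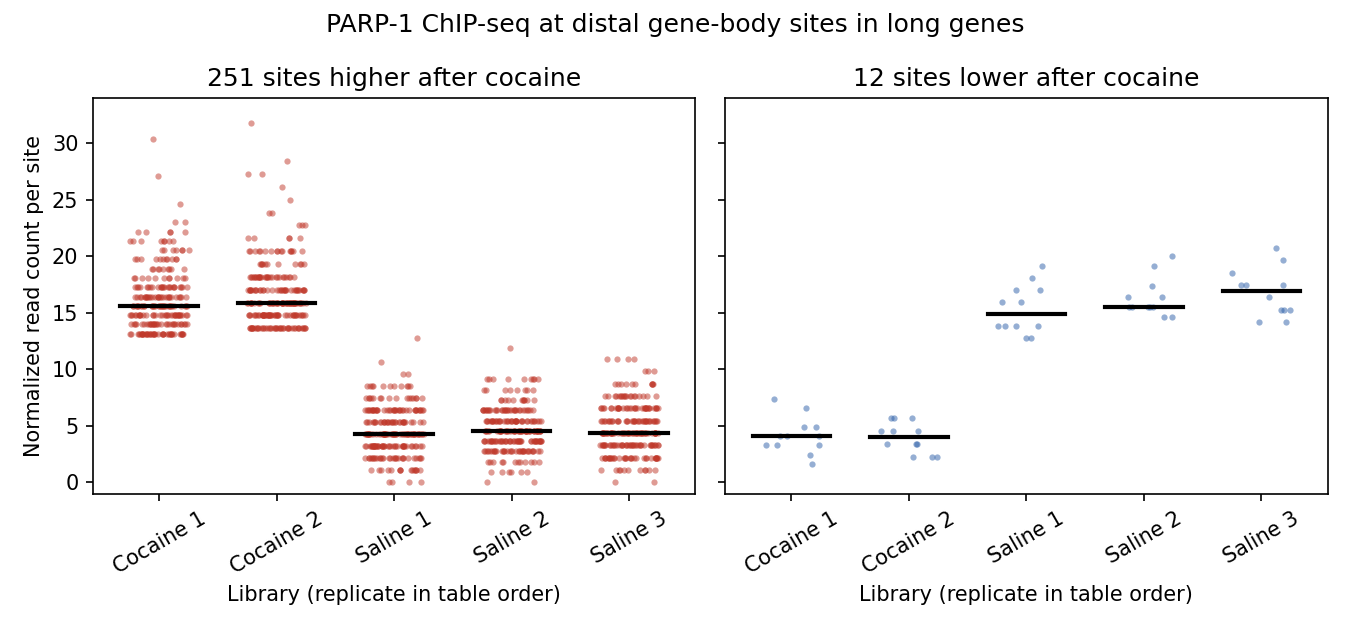
Normalized read count (vertical axis) in each of the 5 libraries (horizontal axis) at the 251 higher sites (left) and the 12 lower sites (right); points are sites and bars are medians. At the higher sites the cocaine medians were 15.6 and 15.9 against 4.25 to 4.56 in saline, and at the lower sites the order of the groups was turned.

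At all 263 sites every library of one group exceeded every library of the other, with cocaine above at 251 and saline above at 12. Over the 1727 listed sites, which had been selected on these libraries, this held for 99.0%, with cocaine above at 92.2% and saline above at 6.72%. limma's test on log2(value + 1), adjusted by Benjamini-Hochberg over all 1727 sites, passed 250 sites as higher and 12 as lower at an adjusted p under 0.05. These are 95.1% and 4.56% of the 263 sites, against 90.2% and 5.27% of all listed sites, so passing says little about long genes in particular. Median log2 fold changes were 1.68 for higher and -1.81 for lower sites, against 1.69 and -1.75 over all listed sites. The full list holds 69 sites with a mean of 100 or more, and the 263 sites hold 0. With those left out, the medians over the list were 1.70 and -1.81, and 1648 of 1658 sites passed. An exact conditional test, which counts reads over all 5 libraries, passed all 263 sites, against 98.2% of all listed sites. The number passing limma's test depended on having both cocaine libraries, while the fold changes moved little. Without the first cocaine library limma passed 117 of the 263 sites, against 46.0% of all listed sites, with 216 at an unadjusted p under 0.05 and medians of 1.72 and -1.90. Without the second it passed 0 (0% of all listed sites), with 204 at an unadjusted p under 0.05 and medians of 1.67 and -1.70. The smallest adjusted p was 0.0485 and 0.0561 in these fits, on either side of the threshold.

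Each value rested on few reads. Per library the higher sites held a median of 19 and 14 reads after cocaine, never fewer than 16 and 12. They held a median of 4, 5 and 4 reads after saline. At 8 of the higher sites 1 saline library had no read at all. At 127 of the 251 higher sites at least 1 cocaine library lay within 1.1 times the lowest value that library had at any of them. Taken by the value of 1 read, the shallowest library had 72.3% of the depth of the deepest.

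The authors' enrichment columns, the ratio of a group's mean to a background they set, placed most of these sites near background in saline. At the higher sites the ratio had a median of 0.75 in saline and was under 1 at 181 of 251. After cocaine the median was 2.50, with 178 sites at 2 or more and 24 under 1.5. Cocaine counts at these sites spanned 2.32-fold while the enrichment spanned 13.9-fold, so the ratio varied far more than the counts. The highest enrichment was at Nrg2, which encodes a neuregulin, a growth factor for ErbB receptors. It had 13.9 after cocaine and 4.26 after saline. The lowest among the higher sites was at Enox1, an oxidase gene, with 1.0 and 0.28. Both were chosen after their values were seen. The 12 lower sites were under 1 after cocaine without exception and above 1 after saline at 11, with a median of 1.52.

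**Figure D2:**
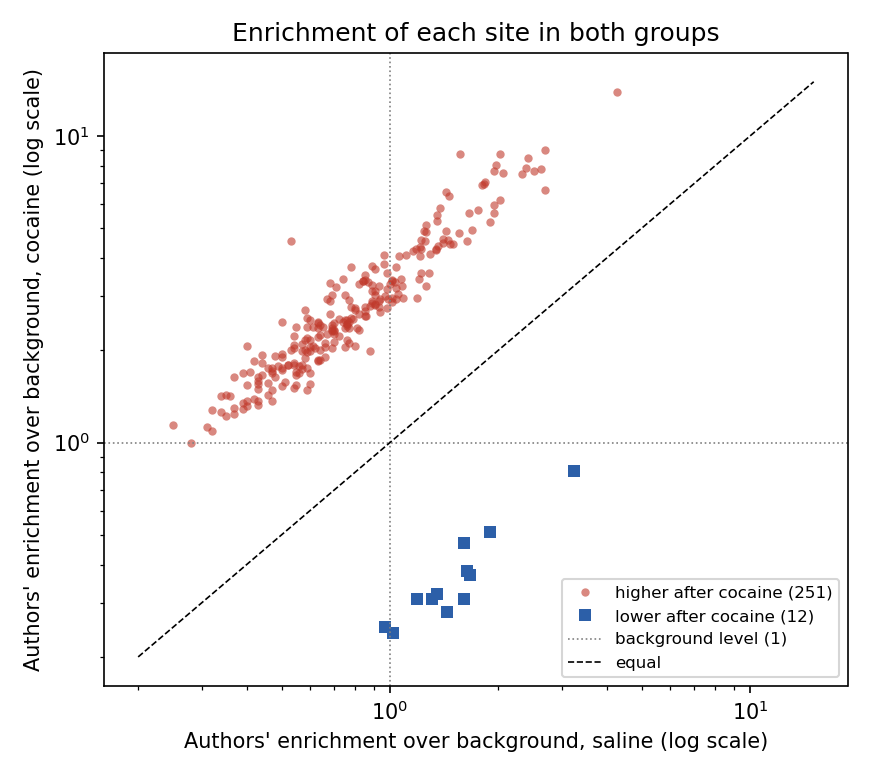
The authors' enrichment over background in saline (horizontal axis) and after cocaine (vertical axis), both on log scales, for 251 higher and 12 lower sites; dotted lines mark the background level of 1. At 181 of the higher sites the saline value is under 1, and the 12 lower sites all fall under 1 after cocaine.

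The sites were narrow and spread along their genes. Of the 263 sites, 148 were exactly 1000 bp wide, and the widest, in Slco3a1, measured 2300 bp. The median distance from the start was 179 kb at higher and 356 kb at lower sites. The median position was 57.9% of the way along the gene for higher and 53.2% for lower sites, with 110 sites before and 153 after the midpoint. The rule itself thins the beginning of each gene, since it removes the first 15 kb. In the 20 genes of 1 Mb or more, where this matters least, 12 sites lay before the midpoint and 19 after it. At 2 sites, in Palld and Ube2cbp, the centre lay just past the annotated end, by 0.47 and 0.54 kb. Genes on the plus strand held 120 sites and those on the minus strand 143. The 19 autosomes held 6 to 24 sites each, and the X chromosome had 7 listed sites, of which 0 were in or near genes.

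**Figure D3:**
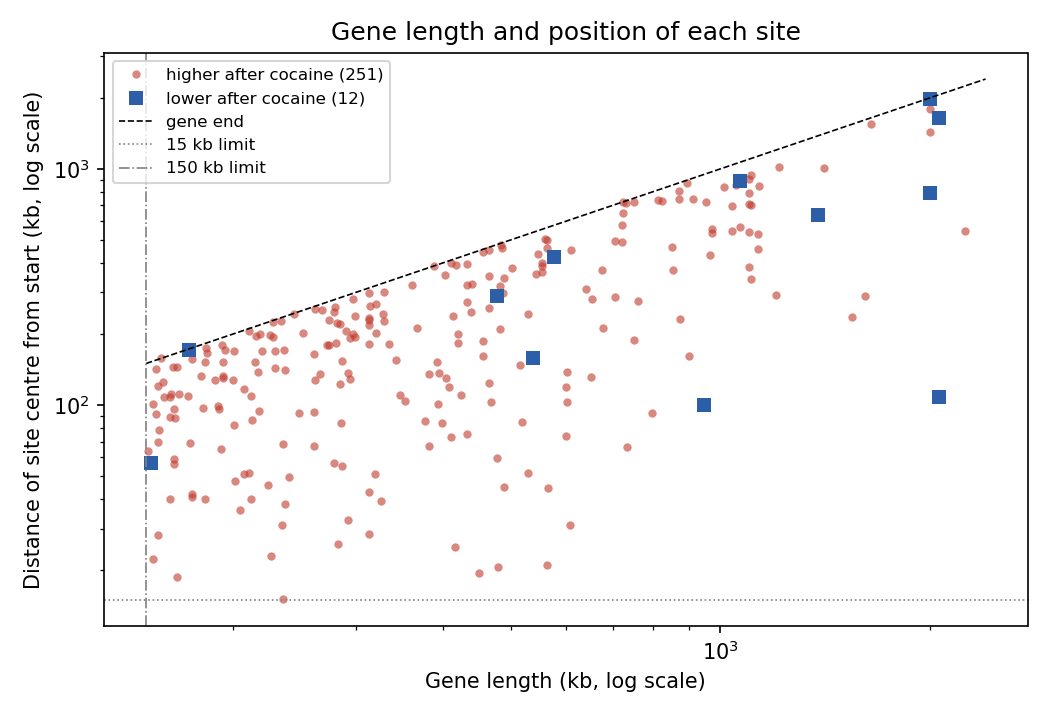
Distance of each site's centre from the start of its gene (vertical axis, kb) against gene length (horizontal axis, kb), both on log scales; the dashed line is the gene end and the other lines are the limits of 15 and 150 kb. The higher sites (circles) fill the space from start to end, and the lower sites (squares) lie in genes with a median length, taken over sites, of 1007 kb.

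Sites at the limits of the rule looked like those around them. The nearest to the assigned start among those included were in Col22a1 (15.1 kb), Kcnj6 (18.7 kb) and Exoc6b (19.4 kb). Their log2 fold changes were 1.70, 1.58 and 1.67. Just outside were Zdhhc14 (14.05 kb) at 1.84 and Glra3 (13.7 kb) at -1.81. The shortest genes included were Nav1 (150.8 kb), Sphkap (152.4 kb) and Anks1 (153.3 kb), with log2 fold changes of 1.64, -1.65 and 1.77. Ptpn14 (148.4 kb) lay just below the limit, and its sites changed by 1.89 and 1.60.

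Of the 12 lower sites, 4 lay in genes of the adhesion list described below, 1 in the signalling list and 1 in the vesicle list. Another 4 lay in Macrod2 and Lrp1b, genes reported at common fragile sites, and 2 in genes of no list. All 12 are given here, adhesion genes first. Gpr98 encodes a very large adhesion G protein-coupled receptor (Adgrv1 in RefSeq). Its site (chromosome 13, 81613201 to 81614300, mm9) had 4.11 and 2.27 normalized reads after cocaine and 17.0, 14.6 and 15.3 after saline. The log2 fold change was -2.02 ± 0.29 (SE), the most negative of the 12. Thsd7b encodes a membrane protein with thrombospondin repeats. Its site (chromosome 1, 131269301 to 131270400) had 4.11 and 2.27 after cocaine and 13.8, 15.5 and 17.5 after saline. At both genes the higher cocaine value stayed under the lowest saline value by more than 9 normalized reads. Nrxn3, the gene of the presynaptic organizer neurexin-3, had 3.29 and 5.68 after cocaine and 18.1, 16.4 and 19.7 after saline at its site 636 kb from the start (46.0% of the way along the gene). Cdh12, a cadherin gene, had 7.39 and 4.55 against 19.1, 19.2 and 20.7 (chromosome 15, 21329101 to 21330400). It had the smallest change of the 12, with a log2 fold change of -1.60 ± 0.28.

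Among the other lower sites, Cadps2 encodes a priming factor of dense-core vesicles, the carriers of neuropeptides and growth factors. Its site (chromosome 6, 23364701 to 23365700) had 4.93 and 2.27 normalized reads after cocaine and 15.9, 16.4 and 14.2 after saline. Sphkap encodes an anchoring protein for the cAMP-dependent kinase. It had 3.29 and 5.68 against 13.8, 15.5 and 18.6 (chromosome 1, 83347401 to 83348400). The RIKEN gene 1700113H08Rik had 6.57 and 3.41 against 17.0, 20.1 and 17.5 (chromosome 10, 86691501 to 86692600), 1.29 kb before its end. At these 3 genes no cocaine library reached 7 normalized reads and no saline library fell under 13. Over all 12 lower sites the highest cocaine and lowest saline values were little different, at 7.39 and 12.7. Lrp1b encodes a giant endocytic receptor of the lipoprotein receptor family, and both of its sites were lower. The one 108 kb from the start (chromosome 2, 42400901 to 42401900) had 4.93 and 3.41 against 15.9, 15.5 and 16.4. The one at 1644 kb (40864601 to 40865600) had 3.29 and 4.55 against 12.7, 17.3 and 14.2. The pair lay 1536 kb apart within the same gene and moved the same way. The remaining 3 lower sites, in Erbb4 and Macrod2, shared their genes with higher sites. Sphkap, Cdh12 and 1700113H08Rik were outside the rule for named genes and were added after their values were seen.

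Macrod2 and Erbb4 held sites in both directions. Macrod2 encodes a hydrolase that removes the last ADP-ribose from modified proteins, and so acts on the product of PARP enzymes. It is one of the longest genes of the set (1995 kb, chromosome 2) and held 4 sites. Going along the gene, the site at 792 kb (141013001 to 141014000) was lower, with 2.46 and 4.55 normalized reads after cocaine and 12.7, 15.5 and 15.3 after saline. The site at 1434 kb (141654301 to 141655300) was higher, with 18.9 and 20.5 against 8.5, 4.56 and 7.64. At 1784 kb (142004401 to 142005500) it was again higher, with 18.1 and 18.2 against 5.31, 5.47 and 6.55. The last site, at 1976 kb (142196501 to 142197600) and 99.1% of the way along, was lower, with 1.64 and 5.68 against 13.8, 14.6 and 15.3. The log2 fold changes in this order were -1.82, 1.42, 1.5 and -1.89, with SEs of 0.30, 0.31, 0.23 and 0.42, and all 4 passed limma's test. Neighbouring sites of opposite direction were 641 and 192 kb apart. Erbb4 encodes the receptor of neuregulins. Its site at 565 kb (chromosome 1, 68589301 to 68590400) was higher, with 15.6 and 15.9 against 5.31, 2.74 and 4.37. The site at 892 kb (68262301 to 68263500) was lower, with 4.11 and 3.41 against 13.8, 15.5 and 17.5. The 2 sites, 327 kb apart, had nearly mirrored log2 fold changes of 1.74 ± 0.30 and -1.80 ± 0.24.

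**Figure D4:**
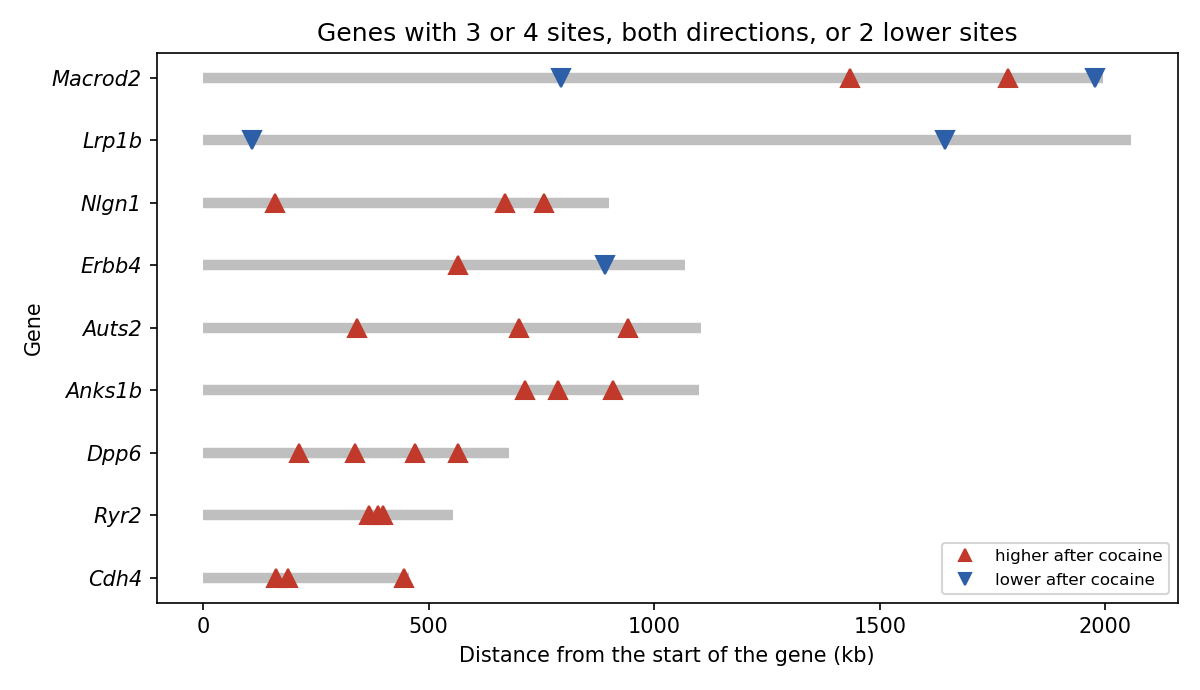
Position of each site (horizontal axis, kb from the gene's start on the longest transcript the table assigned to a site of it) in 9 genes; upward triangles are sites higher after cocaine and downward triangles are lower ones. Macrod2 and Erbb4 carry both directions, Lrp1b carries 2 lower sites 1536 kb apart, and the 3 Ryr2 sites sit within a stretch of about 31 kb.

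Lower sites made up a larger share in the longest genes than in the rest. In genes of 1 Mb or more 6 of 31 sites were lower (19.4%, exact Clopper-Pearson 95% interval 7.45 to 37.5%). In genes of 150 kb to 1 Mb it was 6 of 232 (2.59%, 0.95 to 5.54%). Distal gene-body sites of genes under 150 kb had 4 lower of 256 (1.56%, 0.43 to 3.95%). Gene deserts, the long stretches without genes, had 36 of 212 (17.0%, 12.2 to 22.7%). The intervals cover the counting of sites only, and the limit of 1 Mb was chosen after the values were seen. The 6 lower sites of the longest class lay in 4 genes, and without Macrod2 and Lrp1b the share was 2 of 25 (8.0%, 0.98 to 26.0%). The difference therefore rested largely on those 2 genes, and no test of it was made. The median log2 fold change at higher sites was 1.73 in genes of 150 to 200 kb, 1.75, 1.67 and 1.66 in the next 3 classes of length shown in the plot of lower shares, and 1.61 in genes of 1 Mb or more. It was thus smallest in the class with the largest share of lower sites, by a margin that was not tested.

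**Figure D5:**
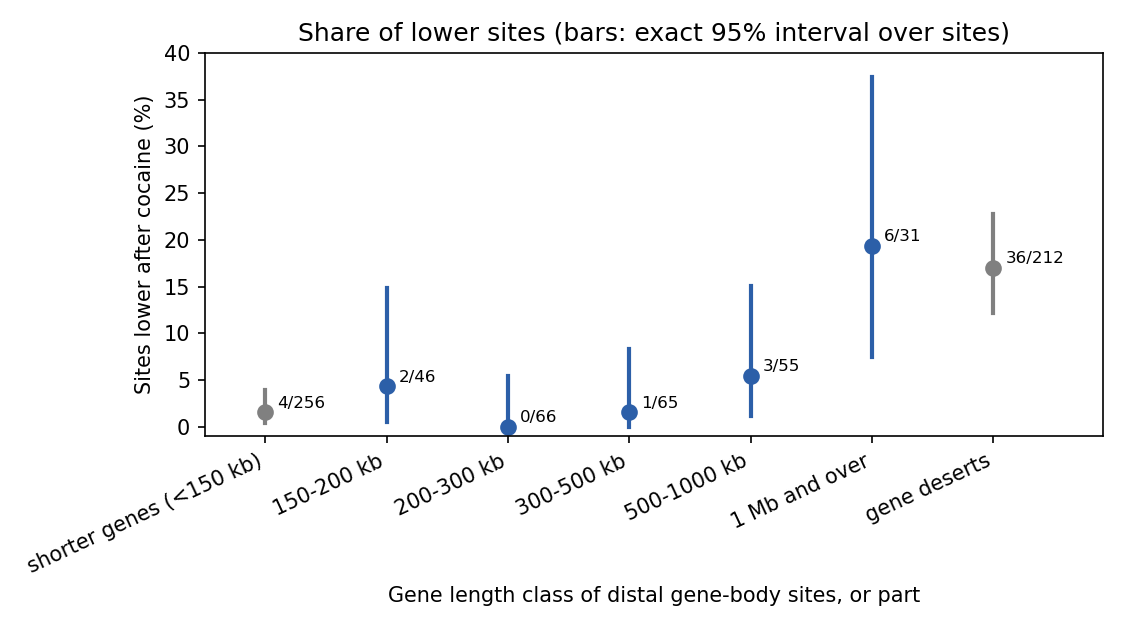
Percent of sites lower after cocaine (vertical axis) by length class of the gene, with distal sites of shorter genes and gene deserts in grey for comparison; bars are exact 95% intervals over sites and labels give lower sites over all sites. The class of 1 Mb and over stands at 19.4%, the gene deserts at 17.0%, and the other classes at 0 to 5.45%.

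The 31 genes with 2 or more sites held 71 sites and gave 40 pairs of neighbouring sites within a gene. Of these pairs 37 had the same direction, which says nothing particular of neighbours, since 251 of the 263 sites were higher. The 3 other pairs were those of Macrod2 and Erbb4 given above. Neighbours lay a median of 125 kb apart (11.2 to 1536 kb), with 9 pairs under 50 kb and 12 over 200 kb. The protein of Dpp6 joins A-type potassium channels as a subunit and tunes them. This gene held 4 higher sites on chromosome 5, spaced 125, 134 and 95.2 kb apart. At the first (27587101 to 27588100) the counts were 16.4 and 19.3 after cocaine and 4.25, 6.38 and 5.46 after saline. It lay 212 kb from the start of its assigned transcript, but close to the start of the one assigned to the other Dpp6 sites. The log2 fold changes of the 4 ran from 1.48 to 1.63. Ryr2 encodes the calcium release channel of the endoplasmic reticulum found in heart and brain. Its 3 higher sites, on chromosome 13, were the closest group, 11.2 and 20.0 kb apart. The site with the smallest p (11831501 to 11832500) had 13.1 and 15.9 against 3.19, 4.56 and 2.18. The other sites of Ryr2 had 15.6 and 17.0 against 2.12, 5.47 and 7.64, and 16.4 and 15.9 against 2.12, 6.38 and 5.46. The first saline library was the lowest at 2 of the 3 sites, and the cocaine libraries stayed within 4 normalized reads of each other.

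Auts2, a neurodevelopmental gene whose protein takes part in transcription, held 3 higher sites spread over 602 kb of chromosome 5. They had log2 fold changes of 1.60 ± 0.26, 1.41 ± 0.29 and 1.85 ± 0.37. The first (132075301 to 132076300) had 14.0 and 19.3 normalized reads after cocaine and 4.25, 4.56 and 5.46 after saline. Anks1b encodes a postsynaptic protein with ankyrin repeats that binds the NMDA receptor scaffold. Its 3 higher sites on chromosome 10 changed by 1.60 to 1.67, and the first (90048501 to 90049500) had 14.0 and 14.8 against 4.25, 3.65 and 4.37. In these 2 genes the saline libraries stayed under 9 normalized reads at the 6 sites. The cocaine libraries stood above 13 there, as they did at all 251 higher sites, so this level is no trait of the 2 genes. Cdh4, the gene of retinal cadherin, held 3 higher sites on chromosome 2. The one near the end of the gene (179620801 to 179622000) had 16.4 and 20.5 against 6.37, 8.21 and 1.09, so its saline libraries ranged widely, and its adjusted p (limma) was 0.0322. The Cdh4 site at 187 kb was tighter, with 14.8 and 17.0 against 6.37, 4.56 and 4.37. Nlgn1, the gene of neuroligin-1, the postsynaptic partner of neurexins, held 3 higher sites on chromosome 3. The tightest (25561901 to 25562900) had 14.8 and 15.9 against 4.25, 4.56 and 4.37, a log2 fold change of 1.60 ± 0.22. That SE was the smallest of all higher sites.

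Genes of adhesion and synapse organizing molecules formed the largest group, with 38 sites in 31 genes and a median gene length of 797 kb. limma passed 34 as higher and 4 as lower. Since 90.2% of all listed sites passed as higher and 95.5% in either direction, full counts in this group and the others below are near the background. The median log2 fold change of the higher ones was 1.65, against 1.68 over all 251 higher sites. Csmd3, a gene of a large membrane protein with complement-like repeats, had 14.8 and 14.8 after cocaine and 3.19, 2.74 and 2.18 after saline (chromosome 15, 47603701 to 47604700). Dab1 encodes the intracellular adaptor of reelin signalling, which guides neuronal migration. It had 14.0 and 17.0 against 3.19, 3.65 and 3.28 (chromosome 4, 104257301 to 104258400), a log2 fold change of 1.91 ± 0.24. At both genes the saline libraries agreed closely with each other. Cntnap2, a gene of the neurexin superfamily and the longest of the set at 2241 kb, had 21.4 and 18.2 against 6.37, 8.21 and 7.64 at 546 kb from its start. This was one of the smaller increases, 1.31 ± 0.25 (SE, adjusted p by limma 0.00583).

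Genes of ion channels and their auxiliary subunits held 18 sites in 11 genes, all higher and all passing, near the 90.2% and 95.5% of all listed sites. Their median log2 fold change was 1.63, with a range of 1.30 to 2.03. Kcnma1 encodes the large-conductance potassium channel that opens with calcium and voltage. Its site with the smallest p (chromosome 14, 24536601 to 24537600) had 15.6 and 14.8 after cocaine and 2.12, 3.65 and 3.28 after saline. It led this group at 2.03 ± 0.28. Trpc4 encodes a receptor-operated cation channel and had 15.6 and 17.0 against 4.25, 5.47 and 5.46 (chromosome 3, 54067601 to 54068600). The voltage-gated calcium channel genes Cacna1c and Cacna1d, the potassium channel genes Kcnd3, Kcnh1, Kcnh5 and Kcnj6 and the calcium release channel gene Ryr3 made up the rest of the group with Dpp6 and Ryr2. Among these genes other than Dpp6 and Ryr2, Cacna1d had the smallest increase, 1.30, and Kcnh1 the largest, 1.77.

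Genes of neurotransmitter receptors and postsynaptic scaffolds held 5 sites in 4 genes, all higher and all passing. Grid1 encodes a glutamate receptor subunit that bridges synapses rather than conducting current under usual conditions. It had 13.1 and 14.8 after cocaine against 2.12, 2.74 and 3.28 after saline (chromosome 14, 35908701 to 35909700), a log2 fold change of 2.02 ± 0.26. Grik1, a kainate receptor gene, had 22.2 and 21.6 against 7.43, 8.21 and 5.46 (chromosome 16, 88153001 to 88154300). Dlgap2, a gene of a postsynaptic scaffold protein, had 17.3 and 14.8 against 4.25, 2.74 and 6.55 at 723 kb from its start.

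Genes of cAMP, calcium, lipid and kinase signalling held 13 sites in 12 genes. limma passed 12 as higher and the Erbb4 site given above as lower, with 0 left over. Sphkap, also lower, was in no list, although its protein anchors the cAMP-dependent kinase. Pde4b encodes a cAMP phosphodiesterase. It had 14.8 and 14.8 after cocaine and 3.19, 3.65 and 5.46 after saline (chromosome 4, 102031201 to 102032200). Akap13 encodes an anchoring protein for the cAMP-dependent kinase that also activates a small GTPase. It had 18.1 and 13.6 against 4.25, 4.56 and 4.37 (chromosome 7, 82794701 to 82795700). Plce1, a phospholipase C gene, had 15.6 and 13.6 against 3.19, 1.82 and 5.46 (chromosome 19, 38762601 to 38763700). The 3 genes changed by 1.65, 1.63 and 1.88 on the log2 scale, with the widest saline spread at Plce1.

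Genes of axon guidance and of small GTPase regulators held 12 sites in 12 genes, all higher and all passing, with a median of 1.70. Dcc, the netrin receptor gene, had 19.7 and 23.9 after cocaine and 5.31, 6.38 and 8.73 after saline (chromosome 18, 72126001 to 72127200). Dock1, an activator of Rac, had 18.1 and 20.5 against 5.31, 4.56 and 6.55 (chromosome 7, 142242101 to 142243700). Epha6 and Ephb2 encode ephrin receptors. Epha6 had 13.1 and 14.8 against 3.19, 2.74 and 5.46, and Ephb2 13.1 and 13.6 against 3.19, 4.56 and 1.09. The Ephb2 values after cocaine were the lowest that any higher site had in each cocaine library, a level other sites shared. Its log2 fold change was 1.98 ± 0.45.

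Genes of vesicle release and trafficking held 8 sites in 8 genes. limma passed 7 as higher and that of Cadps2 as lower. Sv2b, a synaptic vesicle glycoprotein gene, had 17.3 and 19.3 after cocaine and 4.25, 4.56 and 5.46 after saline (chromosome 7, 82322901 to 82324200). Erc2 encodes a protein of the presynaptic active zone and had 18.1 and 17.0 against 6.37, 5.47 and 5.46 (chromosome 14, 28807501 to 28808800). Exoc4, a gene of the exocyst that tethers vesicles to the membrane, had 14.0 and 13.6 against 3.19, 3.65 and 4.37. Vps13b, a gene of a Golgi lipid transfer protein, had 13.1 and 15.9 against 4.25, 4.56 and 3.28. In these 4 genes no library of one group came within 8 normalized reads of the other group.

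Genes of transcription, chromatin and RNA-binding factors held 25 sites in 18 genes. limma passed 23 as higher and 2 as lower, and both lower ones were the Macrod2 sites. The list counts Macrod2 here, though its protein is the ADP-ribose hydrolase described above. Mbd5, a gene of the methyl-CpG-binding domain family, had 14.0 and 14.8 after cocaine and 2.12, 3.65 and 4.37 after saline (chromosome 2, 49017301 to 49018400). Jarid2 encodes a subunit of Polycomb repressive complex 2 in some of its forms. It had 15.6 and 13.6 against 3.19, 4.56 and 4.37 (chromosome 13, 44925301 to 44926300). Zfp521, a zinc-finger gene, had 13.1 and 13.6 against 2.12, 3.65 and 1.09 (chromosome 18, 13882201 to 13883200), with a log2 fold change of 2.21 ± 0.38. Genes reported at common fragile sites held 18 sites in 11 genes. limma passed 14 as higher and 4 as lower. The 4 lower ones were those of Lrp1b and Macrod2, and 14 of the 18 sites also counted in another group. The remaining 140 sites lay in 124 genes of none of the 8 groups.

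The largest increases rested on saline libraries with almost no reads. Pcsk6, the gene of a proprotein convertase, had 13.1 and 14.8 after cocaine and 0, 3.65 and 1.09 after saline (chromosome 7, 73134401 to 73135400). That is 29 reads against 5. Its log2 fold change of 2.81 ± 0.64 was the largest of all 263 sites. Pcbp3, a gene of an RNA-binding protein, had 13.1 and 14.8 against 5.31, 0 and 3.28 (chromosome 10, 76296801 to 76297800). Chn2, the gene of a Rac-inactivating chimaerin, had 13.1 and 17.0 against 6.37, 0 and 4.37 (chromosome 6, 54117301 to 54118300). Arhgef3, a gene of a guanine nucleotide exchange factor, had 13.1 and 14.8 against 0, 3.65 and 6.55 (chromosome 14, 28196101 to 28197100). In these 4 genes 1 saline library was empty, and limma's adjusted p was 0.00825, 0.0287, 0.0454 and 0.0450. Without that library the log2 fold changes were 2.26, 1.52, 1.34 and 1.33, the last 3 under the median of 1.68 over all higher sites. Leaving out an empty saline library can only lower the change, and the median kept all libraries, so the fall shows only how much that library weighed. Thrb, which encodes the thyroid hormone receptor beta, had 14.0 and 13.6 against 1.06, 6.38 and 1.09, a log2 fold change of 2.22 ± 0.61. Thsd4, a thrombospondin-repeat gene, had a site (chromosome 9, 59947801 to 59948900) with 14.8 and 15.9 against 0, 6.38 and 4.37, a change of 2.26. Cdh13, the gene of a cadherin without a cytoplasmic tail, had at one site (chromosome 8, 121503001 to 121504200) 18.1 and 18.2 against 1.06, 7.29 and 3.28, a change of 2.19. Both genes held another site with a smaller p, so the rule for named genes passed over these, which were chosen after their values were seen. The single site of the 263 that did not pass, in Raet1c, was of the same kind. It had 16.4 and 13.6 against 5.31, 6.38 and 0, with a log2 fold change of 2.15 ± 0.89 and an adjusted p (limma) of 0.0558.

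Higher sites with a larger mean over all libraries had somewhat smaller increases, but the choice by this mean itself favours that. The 66 higher sites with a mean of 10 or more normalized reads over the 5 libraries had a median log2 fold change of 1.55. It was 1.68 over all 251. The mean includes the saline values, and a high saline value both raises the mean and lowers the fold change. The comparison therefore cannot show whether sites with more reads changed less. Slco3a1, an organic anion transporter gene, had 30.4 and 31.8 normalized reads after cocaine and 6.37, 8.21 and 10.9 after saline, the highest cocaine level of the set (chromosome 7, 81519301 to 81521600). Gpc6, the gene of the cell-surface proteoglycan glypican-6, had 27.1 and 28.4 against 6.37, 9.12 and 10.9 (chromosome 14, 118181001 to 118182800). Rab27b, which encodes a small GTPase of vesicle secretion, had 22.2 and 22.7 against 9.56, 8.21 and 10.9, the smallest increase of all, 1.16 ± 0.24. Slco3a1, Gpc6, Rab27b and Raet1c were chosen after their values were seen. No site of the set reached a mean of 100 normalized reads, whereas 15 of the 256 distal sites of shorter genes did. Without those 15 sites that part still held 227 of its 228 genes. The contrast was not tested and is not read as a trait of gene length.

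Higher sites of long genes resembled those of most other parts of the list in log2 fold change. Their median log2 fold change of 1.68 compares with 1.69 at distal sites of shorter genes, 1.74 at sites in or near genes within 15 kb of a start, 1.69 in intergenic stretches outside gene deserts and 1.66 in gene deserts. The 13 higher sites near centromeres stood apart, with a median of 0.103 and median counts of 343 after cocaine and 323 after saline. Among the other parts the authors' enrichment after cocaine was likewise highest within 15 kb of a start and lowest in gene deserts. Its medians were 2.50 in long genes, 2.61 in shorter genes and 3.11 within 15 kb of a start. They were 2.70 in other intergenic stretches and 2.09 in gene deserts. Inside the long genes the median enrichment was 2.87 in genes of 150 to 200 kb and 2.06 in genes of 1 Mb or more. These are medians over sites selected on the same libraries, and the differences between parts were not tested.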

How the data were processed

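The deposited table lists 1727 sites of a diffReps comparison with a negative binomial test, per its name, in build mm9 with CASAVA 1.8.2 per the submitters' processing notes. The aligner, duplicate handling and listing threshold are not given in the sources used here. Per the file headers, the deposited columns used were the normalized read counts of each replicate, the group averages (a mean signal), the enrichment ratio, the authors' log2 fold change and p-values, and gene coordinates, whose gene length is that of the transcript assigned to each site (4 genes had sites on more than 1 transcript). All numbered replicates follow table order. Within a library 100.0% of 8635 values were whole multiples of 1 read (tolerance 0.1 read), a read being worth 0.822 and 1.14 in cocaine and 1.06, 0.912 and 1.09 in saline libraries. Reads amplified by PCR were not marked by molecule and may repeat one, so exact tests cover counting error only.

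limma 3.58.1 (R 4.3.3) was fitted on log2(value + 1) of all 1727 sites, without covariates and without the input DNA sample. This scale understates changes at low counts. An exact conditional binomial test compared the cocaine share of reads with the cocaine share of depth (41.5%). The authors chose the sites on these libraries, so no p-value is independent evidence. The members, gene lists and rule for named genes were chosen with earlier results of these data known. The rule named, by each gene's site of smallest p, genes with 3 or more sites or with both directions, the 6 largest changes per direction, the 3 longest genes, any site with a mean of 100 or more, and up to 4 genes per list by smallest p. Symbols are the table's. RefSeq (GRCm38.p6) matched 251 sites by transcript. No genome of build mm9 was used, so no site sequence is shown. The site of 1 gene that the rule named is not reported here.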

Additional observations from a re-analysis of the deposited data

How the results depend on the processing

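Leaving out 1 library at a time gave 0 to 262 passing sites, 0 to 250 higher and 0 to 12 lower, the lowest without the second cocaine library and the next lowest (117) without the first; a single cocaine library is then assumed to vary like the others. The median log2 fold changes kept their sign in each of these fits. A pseudocount of 4 moved the medians to 1.25 and -1.33, as its construction shrinks low counts. It passed 263 sites, where 1663 of the 1727 listed sites passed. Leaving out sites with a mean under 10 left 78 sites, all passing, 66 of them higher, among 516 listed sites that passed. Restricting to genes of 300 kb or more left 151 sites, all passing, 141 of them higher, where 1649 of the 1727 listed sites passed. With most listed sites passing, full counts say little about long genes in particular. Among 466 values of the 41 named sites under 12 alternatives none changed sign and 56 no longer passed, 41 of these without the second cocaine library. Moving the limit of 1 Mb to 800 kb or 1.2 Mb gave 15.2% and 35.7% lower sites above it and 2.30% and 2.81% below it; these limits, the exact test and a rescaling to sites of high count were added after seeing the data. The planned edgeR fits and their TMM scaling were not run; the exact test on recovered reads was run in their place. No paired analysis was possible because the columns carry no replicate labels. With a median of 4 or 5 saline reads per library at higher sites, the smallest difference among the 263 sites was 2.35-fold.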
